A study of Mus musculus with 9 samples.

Results

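The genes described here build the perineuronal matrix, the hyaluronan-based extracellular coat of neurons. They are 8 genes chosen by symbol: the link protein genes Hapln1 and Hapln4, the lectican genes Acan, Bcan, Ncan and Vcan, and the tenascin genes Tnr and Tnc. All 8 symbols were found among the 23319 gene rows of each count table. Mice were 5 days old, and each of the 9 RNA libraries holds 150 green fluorescent cells hand-picked out of layer 2/3 strips that were cut from anterior cingulate and medial prefrontal cortex. The Nkx2.1 line (Nkx2.1-CreER;Ai47, 3 libraries) was induced with tamoxifen on embryonic day 17. Induction this late is known to mark many chandelier cells, the interneurons whose boutons line up along pyramidal cell axon initial segments. The SOM line (SOM-Cre;Ai47, 3 libraries) and the VIP line (VIP-Cre;Ai47, 3 libraries) had no tamoxifen. All groups carry the Cre-dependent green fluorescent reporter Ai47, and a cell is labelled through the activity of the driver gene in its history, whatever the cell is at collection. Line and tamoxifen cannot be told apart between the Nkx2.1 libraries and the others. Nothing in the labels says whether libraries of a line came from separate animals.

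Hyaluronan is spun out by synthases in the cell membrane and forms the backbone of the matrix. Lecticans, large proteoglycans with chondroitin sulfate chains, bind hyaluronan with one end, small link proteins lock that bond, and tenascins tie the other ends of lecticans together. Around parvalbumin interneurons of the mature cortex this matrix condenses into perineuronal nets, of which aggrecan is a key organizer, while neurocan, versican and tenascin-C belong mostly to the looser matrix of the young brain.

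Reads in genes ranged from 10850303 to 12465997 in the Nkx2.1 libraries, from 6484488 to 9184008 in the SOM libraries and from 8071044 to 11439809 in the VIP libraries. Levels are given as CPM, the reads of a gene per 1000000 reads in genes of that library. The floor of 3 reads lay at 0.241 to 0.463 CPM. It accounts for counting error alone, because amplified reads that carry no molecular identifier do not stand for separate molecules. The line labels were checked against marker lists. The 7 somatostatin interneuron markers summed to 8847 to 13854 CPM in the SOM libraries and to 98.9 to 1155 CPM in the other 6. Of the 7, Elfn1 was not highest in SOM cells, with means of 242 CPM there and 331 CPM in VIP cells. The sum of 1155 CPM was that of Nkx2.1 replicate 1, where Reln stood at 831 CPM. The 5 VIP interneuron markers that could be read summed to 3764 to 5919 CPM in the VIP libraries and to 68.1 to 332 CPM in the others. The 8 parvalbumin and chandelier markers summed to 2592 to 4596 CPM in the Nkx2.1 libraries, 1010 to 1312 CPM in the SOM libraries and 419 to 1285 CPM in the VIP libraries, mostly through Lhx6 and Erbb4. Not all of the 8 were highest in Nkx2.1 cells. Pvalb had no read in any library, Tac1 was at 0 in all Nkx2.1 libraries and averaged 36.6 CPM in SOM cells, Gldn was read in 1 of the 3 Nkx2.1 libraries, and Kcnc1 averaged 36.6 CPM in Nkx2.1 cells, 49.6 CPM in SOM cells and 161 CPM in VIP cells. Between 2 and 7 of the 10 oligodendrocyte lineage markers and between 0 and 6 of the 10 astrocyte markers were at 0 in a library. Their sums are given beside the genes they bear on, and in bulk libraries more cells of a type and more RNA per cell cannot be told apart. No read fell on 461 neighbouring protein-coding genes of the minus strand of chromosome 9 or on 121 of chromosome 19. None of the 8 matrix genes lies there.

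The link protein and lectican genes sit side by side in the genome, 1 of each per locus (GRCm38, GENCODE annotation). Hapln1 (chromosome 13, 89539796 to 89611652, plus strand) lies 43659 bases from Vcan (chromosome 13, 89655312 to 89742509, minus strand), and Hapln4 (chromosome 8, 70083457 to 70090862, plus strand) lies 2222 bases from Ncan (chromosome 8, 70093085 to 70120873, minus strand). Bcan (chromosome 3, 87987531 to 88000230, minus strand) has Hapln2 as its neighbour, and Acan (chromosome 7, 79053483 to 79115099, plus strand) has Hapln3. No other protein-coding gene stands between the partners of any of the 4 pairs. Tnr lies on chromosome 1 (159523769 to 159931729, plus strand) and Tnc on chromosome 4 (63959785 to 64047015, minus strand). Partners were not read alike: Ncan collected 23745 reads over the 9 libraries and Hapln4 0, Bcan 2659 and Hapln2 0, Acan 64 and Hapln3 0, and Hapln1 20501 and Vcan 3850. Annotated noncoding genes or pseudogenes overlap Hapln1 (a pseudogene), Ncan (a miRNA gene), Vcan, Tnr and Tnc, and with the strand setting of the counting not given, reads of such a gene may not be separable from theirs.

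The start regions of the only pair with reads from both partners, and of Ncan, the member with most reads, are shown from the RefSeq promoter table (GRCm38.p6), 250 bases before to 50 bases after the start. They are Hapln1 at chr13:89540386-89540685 on the plus strand, Vcan at chr13:89742463-89742762 on the minus strand and Ncan at chr8:70120795-70121094 on the minus strand. The Hapln1 window lies inside the GENCODE gene, which begins at 89539796, so it does not cover that outer start. Those of Vcan and Ncan span the GENCODE start. Capitals mark E-boxes (CANNTG, the letters read by basic helix-loop-helix factors) and the homeodomain core TAATTA, each searched on both strands, with no overlap between matches of the 2 motifs in these windows.
Hapln1: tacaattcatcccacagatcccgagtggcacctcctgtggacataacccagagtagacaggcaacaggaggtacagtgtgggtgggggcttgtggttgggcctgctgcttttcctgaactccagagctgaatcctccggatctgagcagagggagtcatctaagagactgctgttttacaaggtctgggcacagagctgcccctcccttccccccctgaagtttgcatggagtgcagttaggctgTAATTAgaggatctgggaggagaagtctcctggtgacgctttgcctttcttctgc
Vcan: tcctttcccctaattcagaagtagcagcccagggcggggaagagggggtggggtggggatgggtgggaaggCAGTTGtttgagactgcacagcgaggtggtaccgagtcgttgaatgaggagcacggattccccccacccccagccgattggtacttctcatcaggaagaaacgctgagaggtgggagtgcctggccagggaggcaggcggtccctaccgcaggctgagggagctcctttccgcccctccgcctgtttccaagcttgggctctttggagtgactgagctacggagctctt
Ncan: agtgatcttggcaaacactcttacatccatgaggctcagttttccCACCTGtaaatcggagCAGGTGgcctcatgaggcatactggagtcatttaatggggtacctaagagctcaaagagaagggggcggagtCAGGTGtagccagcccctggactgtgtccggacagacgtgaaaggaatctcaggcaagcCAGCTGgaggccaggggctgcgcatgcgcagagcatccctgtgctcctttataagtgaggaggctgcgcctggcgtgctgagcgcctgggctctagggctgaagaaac
Hapln1 held 1 TAATTA and 0 E-boxes, Vcan 1 E-box and Ncan 4. Over the 32851 promoter windows of the table, 5.29% held TAATTA and 72.3% an E-box. CpG pairs numbered 3, 12 and 9 in Hapln1, Vcan and Ncan, against a median of 7. Such matches describe the letters of the window and say nothing of whether a factor binds there.

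Hapln1, which encodes the link protein that fastens lecticans to hyaluronan, was more than 10 times as abundant in Nkx2.1 cells as in either other line. It stood at 373, 601 and 574 CPM in Nkx2.1 replicates 1 to 3, at 25.7, 50.0 and 34.6 CPM in the SOM replicates and at 17.6, 41.6 and 68.4 CPM in the VIP replicates. Every Nkx2.1 library lay above every other library, while SOM and VIP libraries overlapped. Of the 8 members 5 were tested (Hapln1, Bcan, Ncan, Vcan and Tnr). Of these, 2 were higher without overlap in Nkx2.1 against SOM (Hapln1 and Bcan), as were 4.9% of all tested genes. In Nkx2.1 against VIP 2 of the 5 were so (Hapln1 and Vcan), as were 6.16% of all tested genes. The means were 516 ± 124 CPM in Nkx2.1 cells, 36.8 ± 12.3 CPM in SOM cells and 42.5 ± 25.4 CPM in VIP cells (SD, n = 3 each), which is 14.0-fold and 12.1-fold more in Nkx2.1 cells. Scaled to the exon length of each gene, Hapln1 ranked 329 of 11352 genes with a read in Nkx2.1 cells, 5839 of 12147 in SOM cells and 5561 of 11659 in VIP cells. Replicates were also close: the coefficient of variation of Hapln1 in Nkx2.1 cells was 24.1%, and 6.55% of the 7836 tested genes with at least 10 CPM there had a lower one. The sum of the 10 oligodendrocyte lineage markers was also higher in Nkx2.1 than in VIP cells without overlap. It was 245, 245 and 316 CPM in Nkx2.1 libraries, 103, 275 and 193 CPM in SOM libraries and 1.73, 121 and 49.5 CPM in VIP libraries. The precursor marker Pdgfra stood at 24.8 to 245 CPM in Nkx2.1 libraries, 0 to 39.5 CPM in SOM libraries and 0 to 3.60 CPM in VIP libraries. In Nkx2.1 replicate 2 Pdgfra made up 245.07 of the 245.39 CPM, and 7 of the 10 markers were at 0. Other markers did not separate the lines. Mbp stood at 0.0802 to 139 CPM in Nkx2.1 libraries and at 0.248 to 103 CPM in VIP libraries. Mog averaged 0.614 CPM in Nkx2.1 cells and 5.85 CPM in VIP cells. The 10 astrocyte markers summed to 259 to 3354 CPM in Nkx2.1 libraries, 67.4 to 280 CPM in SOM libraries and 306 to 449 CPM in VIP libraries. The part of glial RNA in the Hapln1 level was not tested.

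**Figure D1:**
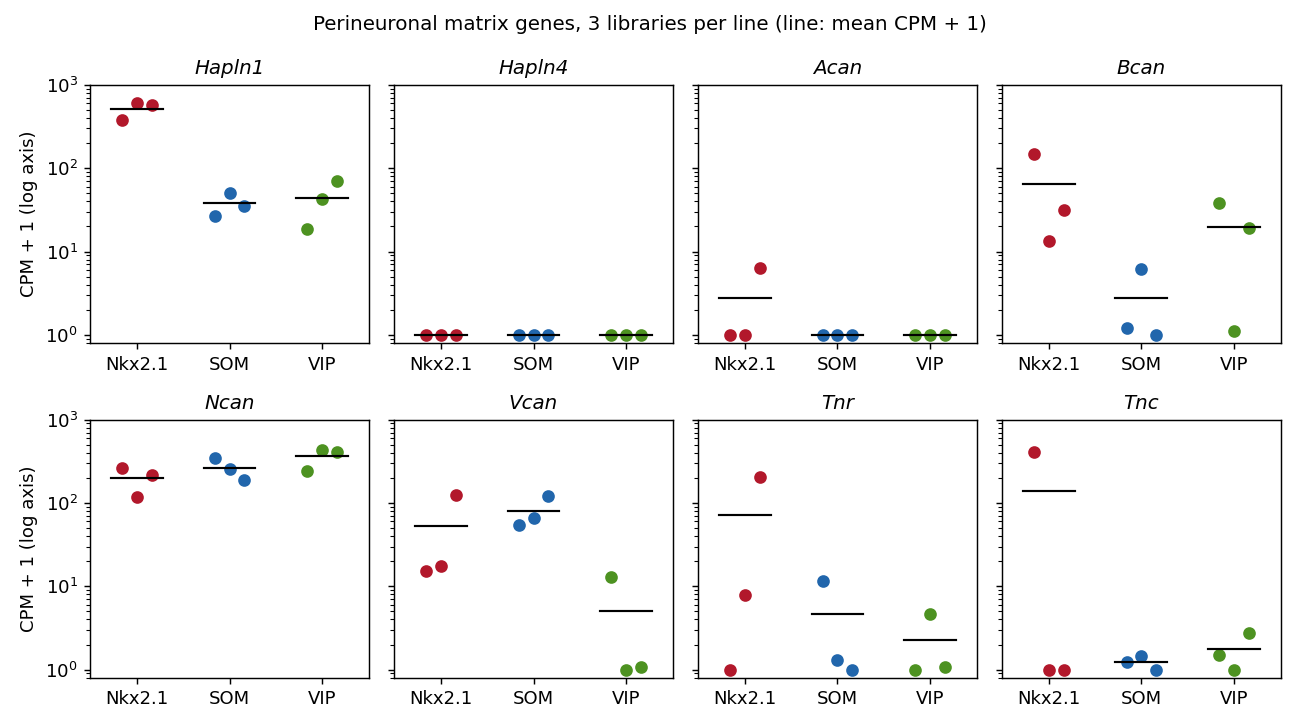
CPM + 1 on a log axis of the 8 perineuronal matrix genes in each library of the Nkx2.1, SOM and VIP lines; points are libraries and the line is the mean CPM + 1 of 3. Hapln1 lies between 373 and 601 CPM in Nkx2.1 libraries and between 17.6 and 68.4 CPM in the other 6, while Ncan is present in all 9 and Hapln4 in none.

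The same gene was then read from a test over the whole table (edgeR quasi-likelihood test, 10728 genes past the filter on low counts, Benjamini-Hochberg adjustment over all of them). Against VIP cells Hapln1 rose by 3.79 ± 0.64 on the log2 scale (SE, edgeR adjusted p = 0.0474) and ranked 31 by p-value among the 10728 genes. In that comparison 0.177% of all tested genes were called higher and 0.308% in either direction, and Hapln1 was the 1 member called of the 5 tested. Against SOM cells the log2 value was of the same size, 3.95 ± 0.65, but its adjusted p was 0.0758 (edgeR). There 0 of the 5 tested members were called, where 0.0652% of all tested genes were called higher and 0.0932% in either direction. Between SOM and VIP cells the log2 value was -0.16 ± 0.58 (edgeR adjusted p = 1.00), 0 members were called, and 0.0746% of genes were called in either direction, with 0.0559% of all tested genes higher in SOM cells. At an unadjusted p under 0.05 (edgeR) stood 1 member when Nkx2.1 cells were set against SOM cells (11.3% of all tested genes), 1 against VIP cells (15.2%) and 0 between SOM and VIP cells (6.99%). The DESeq2 Wald test called Hapln1 in both comparisons of Nkx2.1 cells (adjusted p = 1.63e-08 against SOM and 3.65e-08 against VIP), where it called 1.81% and 4.65% of the 9941 genes to which it gave an adjusted p higher. Between SOM and VIP cells it called 2.47% higher and no member. The size of the difference varied little between settings, with log2 values of 3.76 to 4.23 against SOM and 3.48 to 4.31 against VIP when each library was left out in turn. The edgeR call against VIP was lost in each of these 9 fits, with adjusted p = 0.0555 to 0.180, and against SOM the edgeR adjusted p was 0.0557 to 0.341.

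**Figure D2:**
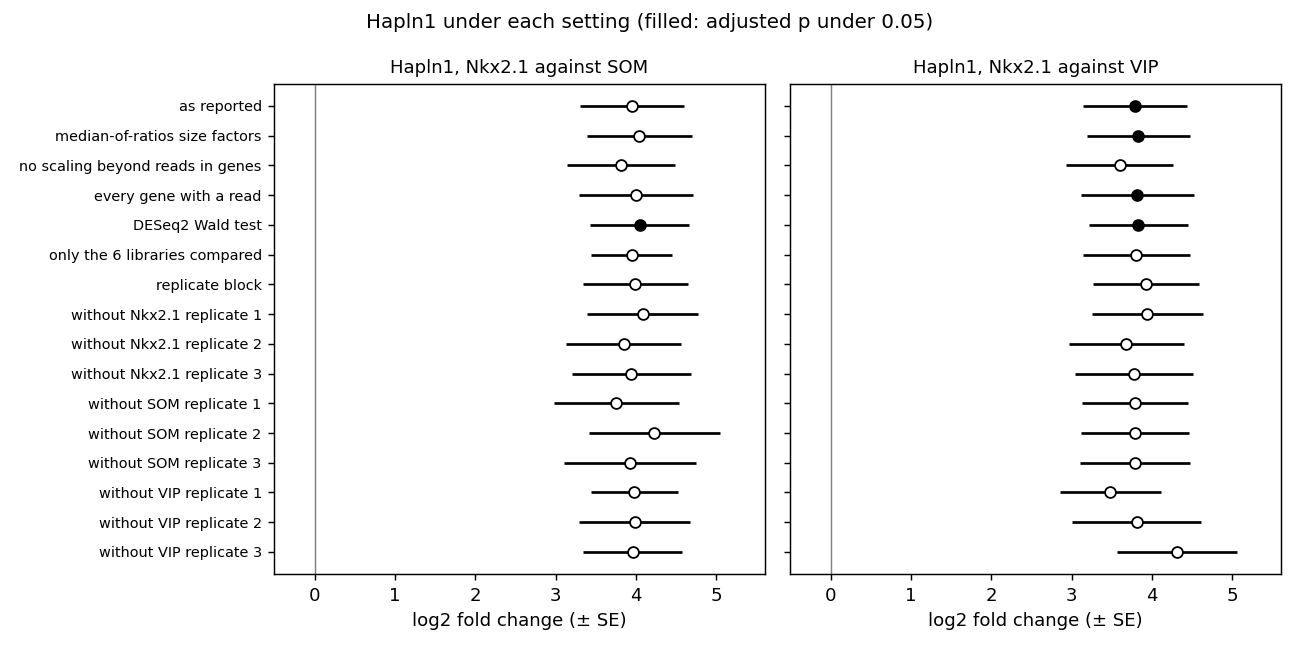
Log2 fold change of Hapln1 with its SE, Nkx2.1 against SOM on the left and Nkx2.1 against VIP on the right, under each setting of the analysis; filled points have an adjusted p under 0.05. All values lie between 3.48 and 4.31, and the adjusted p crosses the threshold from setting to setting.

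Hapln4, the link protein gene that the mature brain uses beside Hapln1, had 0 reads in all 9 libraries. The floor of 0.241 to 0.463 CPM covers counting error alone, so these 0 reads set no firm upper limit on its level. Acan, which encodes aggrecan, was read in Nkx2.1 replicate 3 alone, with 64 reads or 5.39 CPM there and 0 in the other 8 libraries. Neither passed the filter, so neither was tested, and a difference between the lines was not detectable for them. Hapln2 and Hapln3, the other link protein genes, also had 0 reads in every library.

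Ncan, which encodes neurocan, a lectican of the developing brain, was present in every library. It stood at 259, 118 and 218 CPM in Nkx2.1 cells, at 344, 254 and 188 CPM in SOM cells and at 244, 436 and 403 CPM in VIP cells. The 3 lines overlapped pairwise. Ncan averaged 198 ± 72.8 CPM in Nkx2.1 cells, 262 ± 78.3 CPM in SOM cells and 361 ± 103 CPM in VIP cells (SD, n = 3 each). Ncan was not called in any comparison. Its log2 values were -0.22 ± 0.50 for Nkx2.1 against SOM, -0.63 ± 0.50 for Nkx2.1 against VIP and -0.42 ± 0.50 for SOM against VIP (SE, edgeR adjusted p = 0.974, 0.650 and 1.00). The first of these turned direction without Nkx2.1 replicate 2 (0.071) or SOM replicate 1 (0.035).

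Vcan, which encodes versican, a lectican of the young matrix and the genomic neighbour of Hapln1, was lowest in the VIP cells. It had 14.3, 16.4 and 123 CPM in Nkx2.1 cells, 53.1, 65.4 and 119 CPM in SOM cells and 11.9, 0 and 0.0874 CPM in VIP cells. The VIP libraries lay below all 6 others, narrowly so, since the highest VIP library was at 11.9 CPM and the lowest Nkx2.1 library at 14.3 CPM. Among all tested genes 6.16% were higher without overlap in Nkx2.1 against VIP and 10.2% in SOM against VIP. Vcan was not called in either comparison, with log2 3.71 ± 2.11 for Nkx2.1 against VIP and 4.29 ± 2.17 for SOM against VIP (SE, edgeR adjusted p = 0.468 and 0.844). Between Nkx2.1 and SOM cells it was -0.57 ± 1.90 (edgeR adjusted p = 0.983). The Vcan values in VIP cells rested on 96, 0 and 1 reads, and without VIP replicate 1 the log2 values were 9.89 and 10.5 (edgeR adjusted p = 0.256 and 0.465). Without Nkx2.1 replicate 3, the highest of its line, Vcan stood at log2 2.14 against VIP and -2.14 against SOM (edgeR adjusted p = 0.622 and 0.699). The sum of the oligodendrocyte lineage markers, given with Hapln1, averaged least in VIP cells too. Its member Cspg4 stood at 0 to 156 CPM in Nkx2.1 libraries, 0 to 77.6 CPM in SOM libraries and 0 to 0.124 CPM in VIP libraries. Not every member went this way. In Nkx2.1, SOM and VIP cells Mog averaged 0.614, 28.5 and 5.85 CPM, Olig1 0.461, 0.308 and 0.330 CPM, and Mbp 50.4, 85.4 and 49.8 CPM. The part of this lineage in the Vcan level was not tested.

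Bcan, which encodes brevican, a lectican that glia and neurons of the maturing brain make, was highest in 1 Nkx2.1 library. It stood at 147, 12.3 and 30.6 CPM in Nkx2.1 cells, at 0.218, 5.09 and 0 CPM in SOM cells and at 37.7, 0.112 and 18.2 CPM in VIP cells. All Nkx2.1 libraries lay above all SOM libraries, as for 4.9% of tested genes, and overlapped with the VIP libraries. The test called no difference, with log2 5.46 ± 2.57 for Nkx2.1 against SOM and 2.04 ± 2.20 for Nkx2.1 against VIP (SE, edgeR adjusted p = 0.467 and 0.776). For SOM against VIP it was -3.41 ± 2.34 (edgeR adjusted p = 1.00). Nkx2.1 replicate 1, the library with most Bcan, also had the largest sum of astrocyte markers. All 10 of those markers had reads there and summed to 3354 CPM, against 645 and 259 CPM in Nkx2.1 replicates 2 and 3, 67.4 to 280 CPM in SOM libraries and 306 to 449 CPM in VIP libraries. Of the single markers, Slc1a2, Gja1, Gfap and Sox9 were each higher in another library. Without that library the Bcan log2 values of Nkx2.1 cells were 3.65 against SOM and 0.27 against VIP (edgeR adjusted p = 0.576 and 0.990). The part of glial RNA in the Bcan level was not tested.

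The tenascin genes were each read mainly from 1 library. Tnc, which encodes tenascin-C, a glycoprotein made by radial glia and young astrocytes, was found with 4490 reads, or 414 CPM, in Nkx2.1 replicate 1, while both other Nkx2.1 libraries had 0. It had 0.218, 0.463 and 0 CPM in SOM cells and 0.496, 0 and 1.75 CPM in VIP cells. Tnc did not pass the filter, and its level in the Nkx2.1 line came from that library alone, the one in which the astrocyte markers summed to 3354 CPM. In it the astrocyte transporter gene Slc1a3 stood at 1339 CPM and the radial glia gene Fabp7 at 1006 CPM. In the other 8 libraries they reached 277 and 309 CPM at most. Other astrocyte markers were not highest there. Slc1a2 stood at 95.1 CPM in that library and at 233 to 376 CPM in VIP libraries, and Gja1, Gfap and Sox9 were each higher in another library. The part of astrocytes and radial glia in the Tnc reads was not tested.

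Tnr, which encodes tenascin-R, the tenascin of perineuronal nets and of the oligodendrocyte lineage, had 0, 6.90 and 203 CPM in Nkx2.1 cells. It had 10.6, 0.308 and 0 CPM in SOM cells and 0, 3.71 and 0.0874 CPM in VIP cells. Nkx2.1 replicate 3 stood apart from all other libraries, and the lines overlapped. The log2 values were 4.28 ± 3.15 for Nkx2.1 against SOM, 5.88 ± 3.40 for Nkx2.1 against VIP and 1.59 ± 2.82 for SOM against VIP, none of them called (SE, edgeR adjusted p = 0.753, 0.478 and 1.00). Without Nkx2.1 replicate 3 the first fell to 0.043 and the second to 1.64, and without SOM replicate 1 the third was -2.91. The sum of the 10 oligodendrocyte lineage markers was highest of all 9 libraries in the same Nkx2.1 replicate 3, at 316 CPM, against 1.73 to 275 CPM in the others. In it Mbp stood at 139 CPM, Pdgfra at 100.01, Cspg4 at 61.3, Bcas1 at 8.34 and Sox10 at 6.99 CPM, and the other 5, Olig1 and Olig2 among them, were at 0. The part of this lineage in the Tnr reads was not tested.

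The genes were set on 1 scale, CPM per kb of exon, on which Hapln1 led in Nkx2.1 cells and Ncan in SOM and VIP cells. Hapln1 averaged 87.4 ± 21.1 CPM per kb in Nkx2.1 cells, 6.23 ± 2.08 in SOM cells and 7.20 ± 4.30 in VIP cells. Ncan averaged 27.5 ± 10.1 CPM per kb in Nkx2.1 cells, 36.4 ± 10.9 in SOM cells and 50.2 ± 14.3 in VIP cells (SD, n = 3 each). Hapln1 was the more abundant of the pair in every Nkx2.1 library, with ratios of Hapln1 to Ncan of 1.76, 6.24 and 3.21. It was the less abundant in every other library, with ratios of 0.0910, 0.239 and 0.224 in SOM cells and 0.0879, 0.116 and 0.207 in VIP cells. On the log2 scale the ratio averaged 1.71 ± 0.91 in Nkx2.1 cells, -2.56 ± 0.78 in SOM cells and -2.96 ± 0.63 in VIP cells (SD, n = 3 each). The ratio is given as a description and no p-value is given for it, because the pair was chosen with these levels known. Hapln1 held 33.3%, 82.9% and 60.7% of the summed per-kb level of the 8 genes in the Nkx2.1 libraries, 7.67% to 17.04% in SOM libraries and 6.33% to 16.01% in VIP libraries. Among the lecticans alone, Ncan held 49.2%, 79.7% and 64.4% of the per-kb level in the Nkx2.1 libraries, 76.0% to 92.8% in SOM libraries and 77.1% to 99.95% in VIP libraries. The summed lectican level overlapped between the lines, at 20.5 to 73.2 CPM per kb in Nkx2.1, 34.4 to 51.6 in SOM and 44.0 to 60.6 in VIP libraries.

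**Figure D3:**
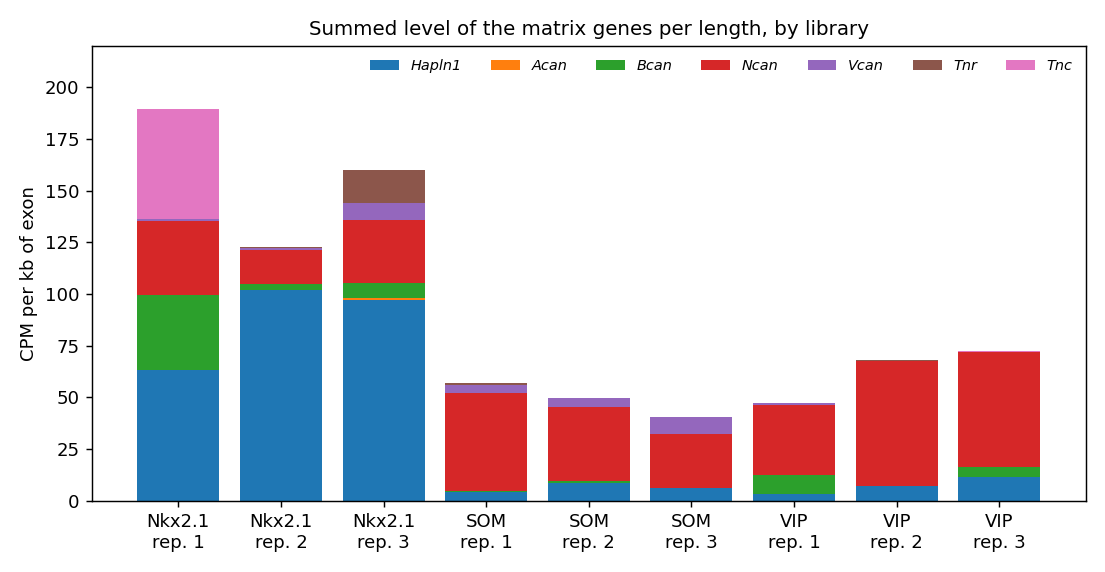
Stacked level of the matrix genes in CPM per kb of exon, 1 bar per library of the Nkx2.1, SOM and VIP lines; Hapln4 had no read. Hapln1 fills 33.3% to 82.9% of the Nkx2.1 bars and 6.33% to 17.04% of the others, Tnc appears in Nkx2.1 replicate 1 and Tnr in Nkx2.1 replicate 3.

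The enzymes, receptors and proteases around these genes were read from 9 lists that hold 78 genes. Of the 73 that were listed and lay outside the unread stretches, 14 had no read in any library and 43 were tested. By edgeR 0 were called in each of the 3 comparisons, although an unadjusted p under 0.05 was found for 10 of the 43 when Nkx2.1 was set against SOM (11.3% of all tested genes), for 9 when it was set against VIP (15.2%), and for 11 between SOM and VIP (6.99%). DESeq2 called 2 of the 43 higher and 5 lower for Nkx2.1 against SOM, 4 higher and 5 lower for Nkx2.1 against VIP, and 4 higher and 3 lower for SOM against VIP, where it called 7.73%, 12.7% and 3.84% of the genes with an adjusted p. The median log2 value of the 43 genes was -1.08, -0.71 and 0.086 in these comparisons, beside -0.0075, 0.0028 and -0.0037 over all tested genes.

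RNA of the hyaluronan synthases was scarce. Has1 reached 30.8 CPM in SOM replicate 3 and at most 0.154 CPM elsewhere, Has2 reached 11.9 CPM in VIP replicate 3, and none of Has1, Has2 and Has3 passed the filter. The hyaluronidase gene Hyal2 stood at 14.7, 142 and 141 CPM in Nkx2.1 cells, at 29.1 to 65.8 CPM in SOM cells and at 0 to 1.80 CPM in VIP cells. VIP libraries were the low ones, without overlap, where 6.16% of all tested genes were so higher in Nkx2.1 and 10.2% in SOM against VIP. This difference was not called by edgeR (log2 7.31 ± 1.97 for Nkx2.1 against VIP and 6.27 ± 1.89 for SOM against VIP, SE, edgeR adjusted p = 0.167 and 0.429), while DESeq2 called it (adjusted p = 2.12e-06 and 0.000261). Tmem2, which encodes a cell surface hyaluronidase, was lowest in the Nkx2.1 line, with 0 to 0.337 CPM there, 20.05 to 106 CPM in SOM cells and 2.70 to 112 CPM in VIP cells (edgeR adjusted p = 0.309 and 0.167 for Nkx2.1 against SOM and against VIP, DESeq2 adjusted p = 4.88e-06 and 2.84e-06).

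Of the 12 chain-building enzymes of chondroitin sulfate some were at or under the floor in a whole line, with Csgalnact1 at 0 to 0.169 CPM in Nkx2.1 libraries and Xylt1 at 0 to 0.225 CPM in VIP libraries. All 12 were tested, and 3 of them had a log2 value above 0 for Nkx2.1 against SOM and 3 against VIP, with list medians of -1.46 and -2.01 and none called by edgeR. DESeq2 called Csgalnact1 and Csgalnact2 lower in Nkx2.1 than in SOM cells (adjusted p = 0.00621 and 0.00833), and in Nkx2.1 against VIP cells Csgalnact2 lower and Xylt1 higher (adjusted p = 3.09e-05 and 0.00219). It also called Xylt1 higher in SOM than in VIP cells (DESeq2 adjusted p = 0.0426). Fam20b, the kinase that primes the linker of the chain, averaged 45.7 ± 52.1 CPM in Nkx2.1 cells, 131 ± 93.4 CPM in SOM cells and 97.6 ± 94.3 CPM in VIP cells. Chpf, a chain polymerase partner, averaged 19.6 ± 26.8 CPM in Nkx2.1 cells, 29.8 ± 13.3 CPM in SOM cells and 110 ± 41.2 CPM in VIP cells (SD, n = 3 each). Of the sulfation list 6 of 10 genes were tested and none was called by edgeR. DESeq2 called Chst15 lower in Nkx2.1 cells against SOM and against VIP cells (adjusted p = 0.00830 and 0.0477), and Ust lower in Nkx2.1 and in SOM cells against VIP cells (adjusted p = 4.79e-07 and 0.000601). Chst12, which sulfates position 4 of the chain, was highest in Nkx2.1 cells without overlap, as were 4.9% of all tested genes against SOM and 6.16% against VIP. It averaged 104 ± 47.2 CPM in Nkx2.1 cells, 32.2 ± 19.1 CPM in SOM cells and 43.0 ± 3.13 CPM in VIP cells (edgeR adjusted p = 0.551 and 0.566). Ust, the uronyl sulfotransferase, averaged 0.391 ± 0.476 CPM in Nkx2.1 cells, 2.09 ± 2.91 CPM in SOM cells and 158 ± 85.0 CPM in VIP cells (edgeR adjusted p = 0.161 for Nkx2.1 against VIP and 0.460 for SOM against VIP).

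The receptor genes ranged from near the floor (Rtn4rl2) to the highest levels of any list (Ptprd). Ptprs, a phosphatase receptor for chondroitin sulfate, averaged 633 ± 216 CPM in Nkx2.1 cells, 419 ± 55.6 CPM in SOM cells and 1095 ± 116 CPM in VIP cells (SD, n = 3 each). No difference in Ptprs was called by edgeR (edgeR adjusted p = 0.398 for Nkx2.1 against SOM, 0.362 for Nkx2.1 against VIP and 0.296 for SOM against VIP). Its relative Ptprd averaged 2142 ± 763 CPM in Nkx2.1 cells, 693 ± 341 CPM in SOM cells and 1564 ± 505 CPM in VIP cells, with 1.75 ± 0.40 on the log2 scale for Nkx2.1 against SOM (SE, edgeR adjusted p = 0.264). Of 11 tested genes in this list none was called by edgeR, while DESeq2 called Ptprd higher in Nkx2.1 than in SOM cells (adjusted p = 0.0119) and Ptprs lower in SOM than in VIP cells (adjusted p = 0.00414).

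Among proteins that nets bind, Sema3a, a guidance molecule held by chondroitin sulfate, had the lowest levels in VIP cells. It stood at 256, 2.25 and 99.1 CPM in Nkx2.1 cells, at 284 to 415 CPM in SOM cells and at 0 to 0.337 CPM in VIP cells. The VIP libraries lay below all others, where 6.16% of all tested genes were higher without overlap in Nkx2.1 and 10.2% in SOM against VIP. For Sema3a log2 was 10.2 ± 2.00 for Nkx2.1 against VIP and 11.5 ± 2.08 for SOM against VIP (SE, edgeR adjusted p = 0.0896 and 0.103), and DESeq2 called both (adjusted p = 7.00e-09 and 8.50e-11). The pentraxin gene Nptx2 had no read in Nkx2.1 cells and averaged 17.8 ± 11.97 CPM in SOM cells and 16.01 ± 16.04 CPM in VIP cells (edgeR adjusted p = 0.328 and 0.223). DESeq2 called it lower in Nkx2.1 cells in both comparisons (adjusted p = 0.00460 and 0.00398). Its VIP libraries ranged from 0 to 32.1 CPM and so overlapped with the Nkx2.1 libraries. The other proteoglycans Ptprz1 (phosphacan) and Cspg5 (neuroglycan C) averaged 254 ± 385 and 62.6 ± 56.9 CPM in Nkx2.1 cells, 251 ± 127 and 174 ± 45.5 CPM in SOM cells and 615 ± 190 and 126 ± 54.9 CPM in VIP cells, and neither was called by either tool. Of the 3 genes of that list tested, Cspg4 also serves as an oligodendrocyte lineage marker, and DESeq2 called it higher in Nkx2.1 and in SOM cells against VIP cells (adjusted p = 0.00119 and 0.00904). Cspg4 stood at 0 CPM in Nkx2.1 replicate 2 and in SOM replicate 3, so both lines overlapped with the VIP libraries. Of the proteases and inhibitors 6 of 14 were tested and none was called by edgeR. DESeq2 called Adamts4 higher in Nkx2.1 than in SOM cells and lower in SOM than in VIP cells (adjusted p = 1.29e-08 and 1.69e-07), and this gene was read in 1 Nkx2.1, 0 SOM and 2 VIP libraries. The inhibitors Timp2 and Timp3, highest by the mean over all 9 libraries, stood at 116 ± 30.9 and 17.3 ± 29.3 CPM in Nkx2.1 cells, 200.1 ± 83.1 and 67.3 ± 29.0 CPM in SOM cells and 260 ± 38.0 and 19.2 ± 33.2 CPM in VIP cells. The list of remaining link proteins and tenascins (Hapln2, Hapln3, Tnxb and Tnn) had 0 reads in all libraries.

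**Figure D4:**
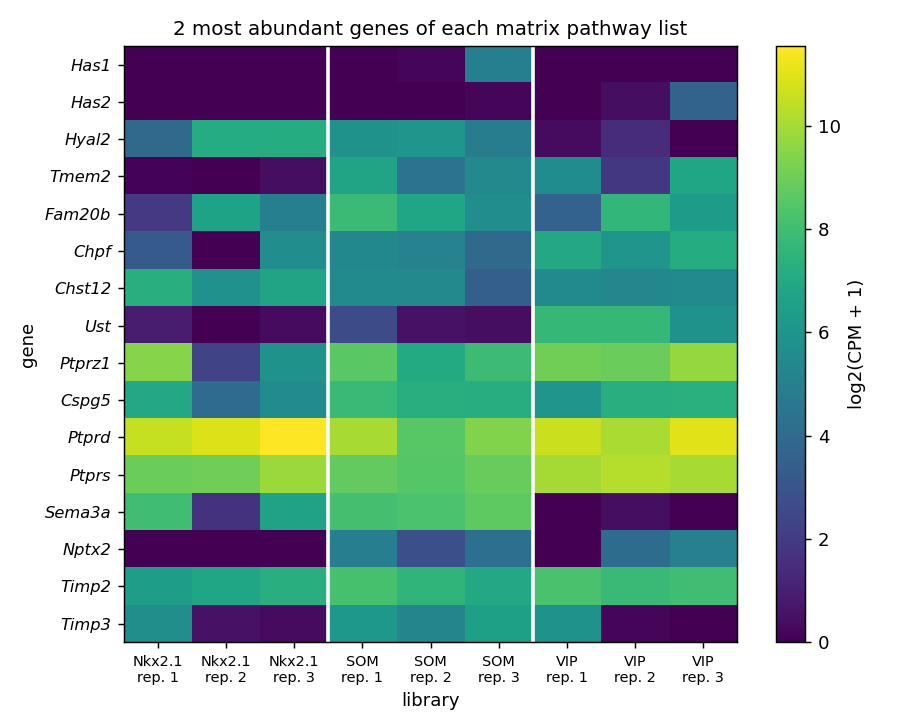
Level as log2(CPM + 1) of the 2 most abundant genes of each pathway list (rows; the list without reads is left out) in the 9 libraries (columns, in the order Nkx2.1, SOM, VIP). Sema3a and Hyal2 are dark in the VIP columns, Tmem2 and Nptx2 in the Nkx2.1 columns, and Ptprd and Ptprs are bright throughout.

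The genes whose levels followed the members most closely were looked up among 9167 tested genes with a mean of at least 10 CPM, by Pearson's r of log2(CPM + 1) over the 9 libraries. These values describe likeness only, and the 9 points share lines and depth. For Hapln1 they were the cadherin gene Cdh6 (r = 0.969), Nkain4 (r = 0.954) and the nucleolar protein gene Nop56 (r = 0.949). Cdh6 averaged 146 ± 42.5 CPM in Nkx2.1 cells, 0.617 ± 1.07 CPM in SOM cells and 2.74 ± 4.74 CPM in VIP cells. Nop56 had a smaller span, with 307 ± 106 CPM in Nkx2.1 cells, 105 ± 14.5 CPM in SOM cells and 80.9 ± 19.5 CPM in VIP cells. For Vcan the first 2 were the transcription factor genes Sox6 (r = 0.963) and Tsc22d1 (r = 0.916). Sox6, a factor of interneurons from the medial ganglionic eminence, averaged 319 ± 210 CPM in Nkx2.1 cells, 677 ± 284 CPM in SOM cells and 15.4 ± 26.6 CPM in VIP cells. For Ncan they were Serp2, Mex3b and Fam89b (r = 0.964, 0.962 and 0.946), for Bcan Ccdc90b, 3110039M20Rik and Mbtps1 (r = 0.922, 0.921 and 0.887), and for Tnr Golim4, Fosl1 and Ccdc18 (r = 0.932, 0.904 and 0.899). No gene was on the lists of 2 members.

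**Figure D5:**
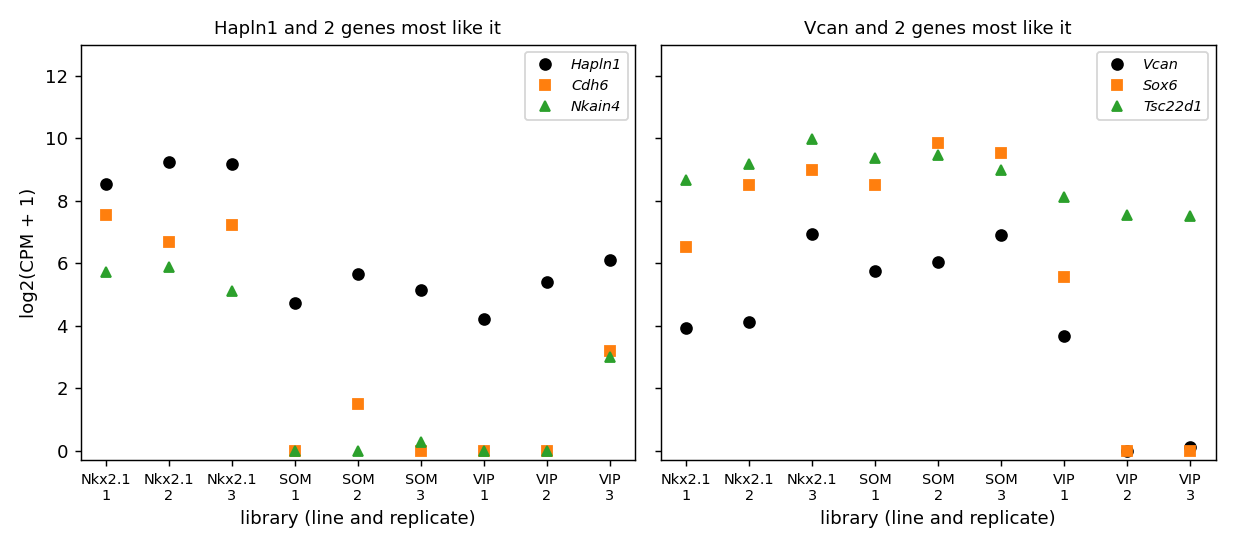
Log2(CPM + 1) of Hapln1 (left) and Vcan (right) with the 2 genes most like each, in the 9 libraries. Hapln1 and its like genes are highest in the 3 Nkx2.1 libraries, and Vcan, Sox6 and Tsc22d1 average least in the VIP libraries.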

How the data were processed

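Each sample has 1 deposited table of raw read counts per gene symbol. Per the submitters' processing notes, TopHat2 2.0.9, DESeq2 and mm10 were used, in roles the notes as held here leave out. Which program counted, and with which strand setting, is not given in the sources used here. Each deposited table also has 5 summary entries that name no gene. They held 83.6% to 85.2% of each table's total and entered neither library sizes nor tests. Most of this was the entry for alignments that were not unique, with 64.5% to 68.0% of each total.

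CPM are the deposited counts per 1000000 reads in genes, without further scaling, and CPM per kb divide by the exon length in GENCODE M21. The test was edgeR 4.0.16 (quasi-likelihood, R 4.3.3) on the counts as deposited, with all 9 libraries in 1 fit, group as the only term, TMM factors (0.812 to 1.09) and filterByExpr at a minimum count of 10. It left 10728 genes, 5 members among them (Hapln1, Bcan, Ncan, Vcan and Tnr), 6 residual degrees of freedom, and the common dispersion, as a biological coefficient of variation, was 1.40. SE were computed as the size of the log2 value divided by the root of F. Calls are at an adjusted p under 0.05. DESeq2 1.42.0 was an alternative. The script was tested on simulated data. Because separate animals are not stated, p-values rest on the spread between these libraries alone, which may be technical.

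The members and lists were chosen with earlier results of these data known. Named genes are all members, the 2 list genes of highest mean CPM, called list genes and the 3 genes most like each tested member (1 of those for Vcan is not reported here); other named genes were chosen after their values were seen. Genes on unread stretches of 1 strand (at least 100 protein-coding genes in a row without a read, mostly not olfactory receptors) were left out of the lists.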

Additional observations from a re-analysis of the deposited data

How the results depend on the processing

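The members' log2 values under the alternatives numbered 224, of which 206 kept their direction and side of the threshold, 12 lost the call, 1 gained it and 5 turned direction. Hapln1 accounts for all changes of call. For Nkx2.1 against VIP the 1 member called became 0 without scaling beyond reads in genes (log2 3.60, edgeR adjusted p = 0.0632), in a fit of only the 6 libraries compared (3.81, 0.118) and in every fit without 1 library, a range of 0 to 0. For Nkx2.1 against SOM the 0 members called became 1 with DESeq2. The values that turned, none of them called, were Hapln1 for SOM against VIP without SOM replicate 1 (0.034) and without VIP replicate 3 (0.35; range -0.50 to 0.35 over the 9 omissions), Ncan for Nkx2.1 against SOM without Nkx2.1 replicate 2 (0.071) and SOM replicate 1 (0.035; range -0.58 to 0.071), and Tnr for SOM against VIP without SOM replicate 1 (-2.91; range -2.91 to 5.95). Over all genes, the 10 genes called between Nkx2.1 and SOM, the 33 between Nkx2.1 and VIP and the 8 between SOM and VIP became 768, 1262 and 382 with DESeq2 and 5, 20 and 32 with only the 6 libraries compared. With every gene that had a read the 8 became 21. Without 1 library the counts ranged from 0 to 37, from 12 to 48 and from 3 to 17. Leaving out the TMM scaling moved the median of all genes by -0.16 and -0.19 in the comparisons of Nkx2.1 with SOM and VIP. Sample numbers are shared by the lines. Deviations of libraries with the same number had r = -0.033 to 0.064 across lines, and those with different numbers r = -0.065 to 0.03. Whether the numbers pair libraries of different lines was not tested. With the replicate block the counts were 4, 11 and 4, and the member called became 0. Hapln1 then stood at 3.99 and 3.93 (edgeR adjusted p = 0.180 and 0.114). The cause of these changes was not tested. Hapln4, Acan and Tnc did not pass the filter on low counts, and their levels rest on at most 1 library above 5 CPM.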
